A study of Mus musculus with 10 samples.

Results

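The genes described here are nuclear genes for subunits and assembly factors of the mitochondrial respiratory chain and for ATP synthase. They were taken by symbol from the array's annotation: every gene whose symbol starts with Nduf, Uqcr or Atp5, or with Cox followed by 4, 5, 6, 7 or 8, together with Sdha, Sdhb, Sdhc and Sdhd. This gave 89 of the 19938 genes that had a probe of their own, 41 of them in complex I, 4 in complex II, 8 in complex III, 19 in complex IV and 17 in ATP synthase (complex V). Their levels were compared between subcutaneous MC38 tumors injected with CpG1826 and tumors injected with PBS.

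The respiratory chain sits in the inner mitochondrial membrane. Complexes I and II take electrons from NADH and succinate, complex III passes them to cytochrome c, complex IV hands them to oxygen, and complexes I, III and IV pump protons whose return flow drives ATP synthase. In macrophages activated through Toll-like receptors, energy metabolism is known to shift towards glycolysis while nitric oxide and itaconate act on the chain enzymes themselves.

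MC38 is a mouse colon carcinoma line, grown here under the skin of C57BL/6 mice. In the CpG1826 group, 5 tumors of about 40 mm2 received 50 µg of CpG1826, an oligodeoxynucleotide that activates mouse TLR9, in 50 µL of PBS and were taken 6 h later (mice 50, 58, 183, 189 and 595). In the PBS group, 5 tumors received PBS, the solvent, and the same schedule was assumed for them (mice 26, 29, 482, 592 and 661). Each array held whole-tumor RNA of a separate mouse by the mouse numbers in the labels, and a tumor holds carcinoma, immune, stromal and skin cells, so a group's value is a mix: fewer cells of a type and less RNA per cell cannot be told apart. Values are log2 levels of a probe, and a log2 fold change is CpG1826 over PBS.

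The arrays' medians lay between 6.47 and 6.53, and pairs of arrays correlated at r = 0.980 to 0.994 across probes. Precision is limited by there being 10 arrays. PBS mouse 26 stood apart in the chain genes. It gave the lowest of the 10 values in 36 of the 89 genes (40.4%, against 17.8% of all genes) and the highest in 14 (15.7%, against 16.5%), so medians are given with and without it. CpG1826 mouse 189 was the lowest in 25 of the 89 genes (28.1%, against 9.02% of all genes), and PBS mouse 592 was the highest in 21 (23.6%, against 8.06%). This order was not particular to the chain genes. The mean level of 77 mitochondrial ribosome genes was also lowest in PBS mouse 26 (8.39), next lowest in CpG1826 mouse 189 (8.42) and highest in PBS mouse 592 (8.61). Among markers of other cell types, 13 of 17 keratinocyte genes passed the test as higher in CpG1826 tumors (mean level of the list 6.86 to 7.49 in CpG1826 tumors and 5.38 to 5.94 in PBS tumors), as did 6 of 10 neutrophil genes (6.35 to 6.78 in CpG1826 tumors and 5.66 to 5.92 in PBS tumors). Of all genes, 3.56% passed as higher and 1.10% as lower. All 20 skeletal muscle markers had a log2 fold change below 0 (median -0.18) and 0 passed the test (2 lower at an unadjusted p under 0.05 in limma, background 7.43%), and the list's mean level ranged from 6.52 to 7.30 in CpG1826 tumors and from 6.83 to 7.22 in PBS tumors. Of 9 macrophage genes 1 passed as higher and 1 as lower, of 8 fibroblast genes 1 as higher, and of 8 endothelial genes 1 as lower. The T, B and NK cell, adipocyte, smooth muscle and erythroid lists gave 0 calls. The part of these cells in the chain values was not tested, except that the muscle score was entered as a covariate. Of 11 markers of carcinoma epithelium, 2 passed the test as higher in CpG1826 tumors: Cdh1, by a log2 fold change of 0.63, and Epcam, by 0.32 (limma adjusted p of 0.0102 and 0.0485). The Epcam call was lost without CpG1826 mouse 50, 58, 189 or 595 or any PBS mouse other than 26, with adjusted p-values of up to 0.126. Over all alternatives the Epcam call was lost in 11 of 18, with limma adjusted p-values of up to 0.143. Of the others, Krt8 averaged 7.05 ± 0.17 in CpG1826 tumors and 6.93 ± 0.21 in PBS tumors (SD, n = 5 each), and Cdx2 averaged 5.60 ± 0.21 in CpG1826 tumors and 5.58 ± 0.06 in PBS tumors. No detection calls were used, so a low value is not read as absence.

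No chain gene passed the test. With limma over all 19938 genes and a Benjamini-Hochberg adjusted p under 0.05, 0 of the 89 genes were higher and 0 lower in CpG1826 tumors, where 4.66% of all genes were called (3.56% higher and 1.10% lower). The smallest adjusted p in limma was 0.159, for Ndufa5. At an unadjusted p under 0.05, 1 of the 89 was higher (Ndufa4l2, background 8.13%) and 8 were lower (Ndufc1, Ndufa5, Ndufb11, Ndufaf1, Ndufaf7, Ndufa4, Atp5g3 and Atp5mpl, background 7.43%). In 2 genes, Ndufa5 and Ndufaf7, every CpG1826 value lay below every PBS value (background 2.42%), and in 0 genes every CpG1826 value lay above (background 4.35%). These shares are close to, or under, those of all genes.

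The intervals give, gene by gene and for the probe kept, the changes these 10 arrays allow. For 87 of the 89 genes the 95% confidence interval of the log2 fold change stayed within 0.5 of 0, a 1.41-fold change either way, as it did for 91.3% of all genes; the bound was set with the values known. The exceptions were Cox7a2, with a lower limit of -0.54, and Atp5mpl, with a lower limit of -0.51. Across all 89 intervals, the largest fall allowed was 1.45-fold and the largest rise 1.32-fold. Each is a separate 95% interval, not adjusted for the number of genes, so these extremes are not a joint limit. Nor do they cover other probes of a gene, whose estimates reached -0.31 (Ndufc1) and 0.29 (Uqcr11). The 89 estimates ran from -0.29 (Atp5mpl) to 0.15 (Ndufa4l2), and 56 of them (62.9%) lay below 0, against 58.0% of all genes. Among the 78 chain genes at or above the median level of all genes, 52 (66.7%) lay below 0, against 53.4% of the 9969 genes at that level.

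**Figure D1:**
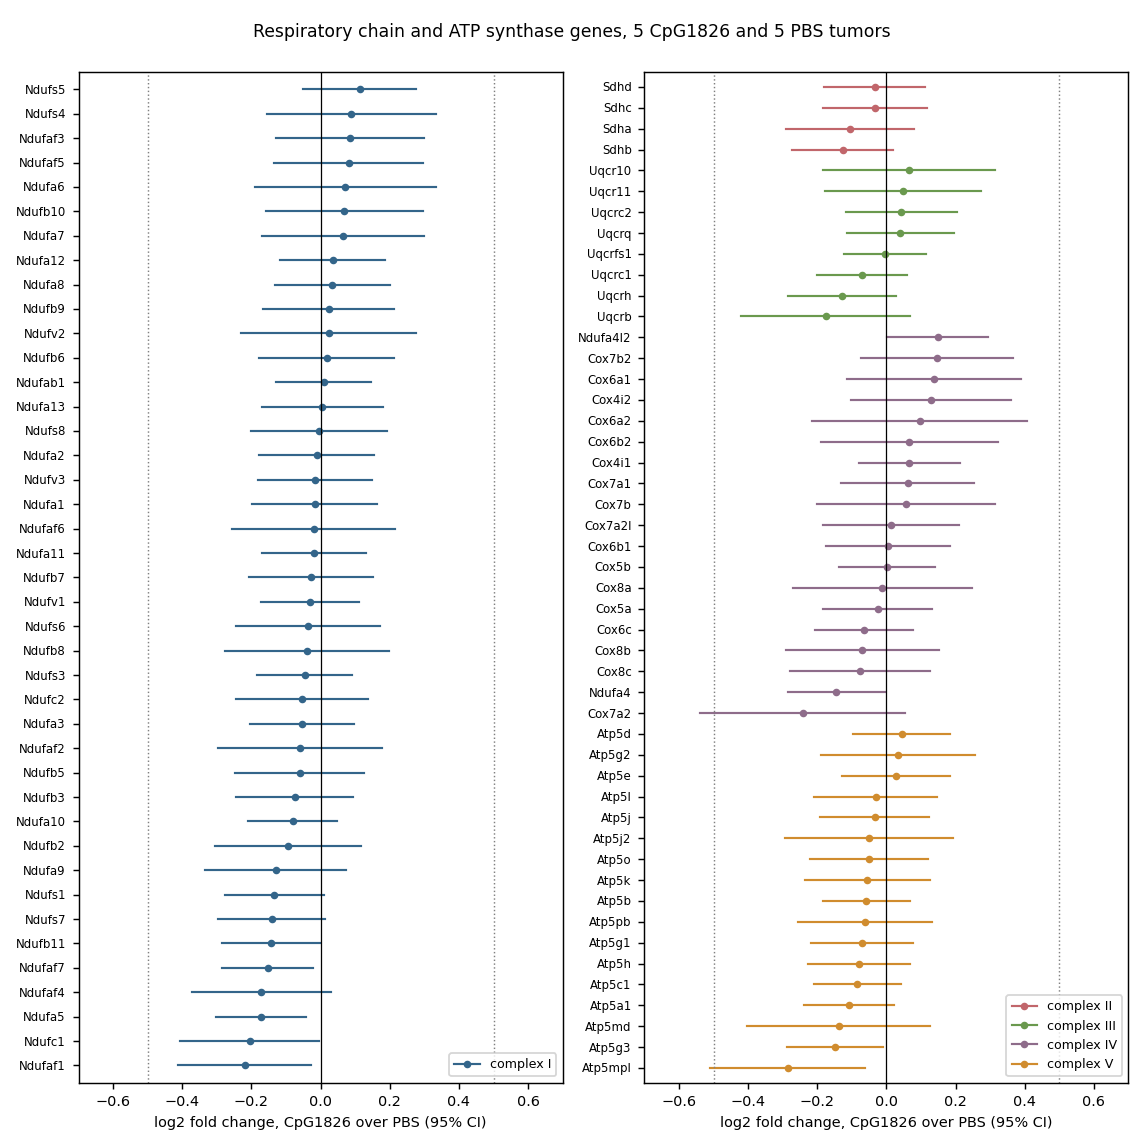
Log2 fold change of each of the 89 genes, CpG1826 over PBS (points), with its 95% confidence interval from limma (lines), complex I on the left and complexes II to V on the right, ordered within each complex. The dotted lines mark 0.5 either side of 0; only the intervals of Cox7a2 and Atp5mpl reach past them, both on the lower side.

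The mean level over the 89 genes was 9.01 ± 0.04 in CpG1826 tumors and 9.04 ± 0.07 in PBS tumors (SD, n = 5 each), a difference smaller than the SD. The median log2 fold change was -0.03 over the 89 genes and -0.02 over all genes. By complex the median was -0.03 in complex I, -0.07 in complex II, 0.02 in complex III, 0.01 in complex IV and -0.06 in complex V. Without PBS mouse 26 the median was -0.07 over the 89 genes and -0.02 over all genes. By complex it was then -0.07 in complex I, -0.08 in complex II, -0.04 in complex III, -0.05 in complex IV and -0.07 in complex V. Again no chain gene passed the test. For a single gene, the SD between mice of a group had a median of 0.131 in the chain genes and 0.141 over all genes, and of 0.119 both in the 78 chain genes and in all genes at or above the median level.

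**Figure D2:**
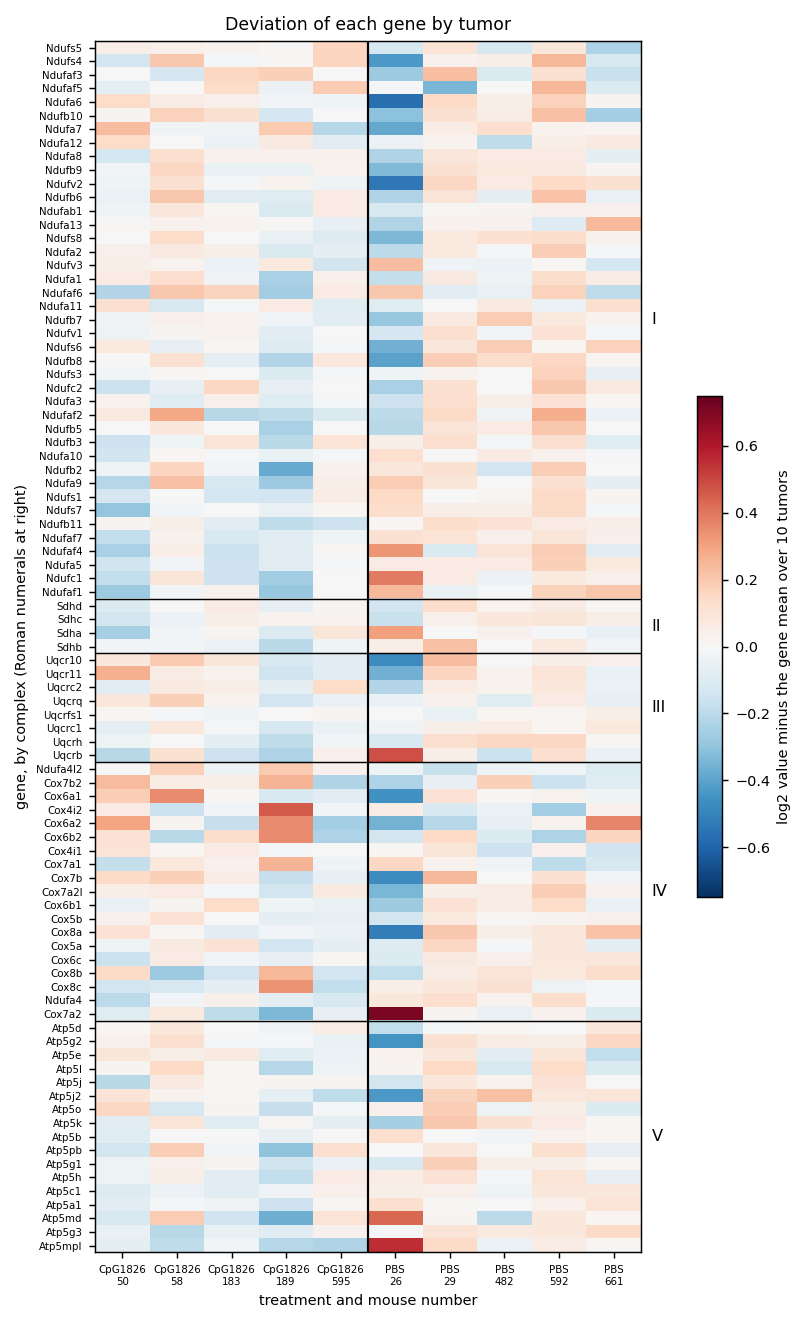
Deviation of each gene's log2 value from its mean over the 10 tumors (color), with the 5 CpG1826 tumors left of the line and the 5 PBS tumors right of it, and the genes ordered by complex and then by log2 fold change. The column of PBS mouse 26 holds strong colors in both directions, the darkest of them Cox7a2 at 9.77, and the column of CpG1826 mouse 189 holds many of the lowest values, in 25 of the 89 genes.

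The start regions of 73 of the 89 genes were given by RefSeq (GRCm38.p6), each as 250 bases before the start and 50 after it. They were searched on both strands for 4 motifs, chosen with these sequences in view: the consensus of NRF-1 and the ETS letters CCGGAAG, both known from promoters of nuclear genes for mitochondrial proteins, the consensus of kappaB, bound by NF-κB, and the AP-1 letters TGACTCA. The NRF-1 consensus was in 6 of the 73 windows (8.22%, against 2.21% of the 15614 genes with a window), and a looser core of the same motif in 18 (24.7%, against 7.85%). The ETS letters were in 18 (24.7%, against 13.6%), the kappaB consensus in 6 (8.22%, against 11.0%) and the AP-1 letters in 6 (8.22%, against 5.41%). None of the 4 motifs contains another, and a match is a description of the letters only. The 6 genes with the NRF-1 consensus had a median log2 fold change of -0.03, as had the other 67. Shown, as examples of the NRF-1 consensus in chain genes, are Uqcrc1 (chr9:108936398-108936697, plus strand) and Sdhd (chr9:50603800-50604099, minus strand). Beside them stand Ndufa4 (chr6:11907401-11907700, minus strand) and AA467197 (chr2:122637637-122637936, plus strand), paralogues whose products can take the same place in complex IV. Each reads 5′ to 3′ along the gene's strand, and capitals mark motif matches.
Uqcrc1: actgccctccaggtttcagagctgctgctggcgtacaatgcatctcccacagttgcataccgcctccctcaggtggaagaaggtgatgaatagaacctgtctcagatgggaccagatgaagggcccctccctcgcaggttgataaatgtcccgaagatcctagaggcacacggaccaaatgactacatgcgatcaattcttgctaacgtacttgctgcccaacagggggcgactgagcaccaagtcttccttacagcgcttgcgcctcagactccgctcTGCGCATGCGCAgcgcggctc
Sdhd: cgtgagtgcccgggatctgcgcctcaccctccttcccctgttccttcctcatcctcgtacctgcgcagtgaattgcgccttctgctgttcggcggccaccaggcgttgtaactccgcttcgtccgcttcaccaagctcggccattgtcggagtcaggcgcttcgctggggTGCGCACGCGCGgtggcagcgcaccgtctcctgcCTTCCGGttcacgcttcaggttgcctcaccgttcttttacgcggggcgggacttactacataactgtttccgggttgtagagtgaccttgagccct
Ndufa4: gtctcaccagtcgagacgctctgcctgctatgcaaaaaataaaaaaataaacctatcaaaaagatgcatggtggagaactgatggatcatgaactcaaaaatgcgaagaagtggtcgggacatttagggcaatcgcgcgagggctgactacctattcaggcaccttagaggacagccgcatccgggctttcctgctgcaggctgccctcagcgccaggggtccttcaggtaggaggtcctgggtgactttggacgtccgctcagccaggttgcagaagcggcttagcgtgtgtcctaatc
AA467197: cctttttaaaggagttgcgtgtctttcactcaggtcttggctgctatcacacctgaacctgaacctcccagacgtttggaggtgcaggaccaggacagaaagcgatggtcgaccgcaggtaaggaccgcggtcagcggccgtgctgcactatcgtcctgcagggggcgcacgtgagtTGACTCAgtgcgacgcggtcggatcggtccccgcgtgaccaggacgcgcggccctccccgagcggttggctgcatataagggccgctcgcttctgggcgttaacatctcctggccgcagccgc
Uqcrc1 holds 1 NRF-1 match, Sdhd 1 NRF-1 and 1 ETS match, the ETS letters on the opposite strand, AA467197 1 AP-1 match, and Ndufa4 none of the 4 motifs in this window.

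Complex I genes fall into 6 catalytic core subunits, 28 accessory subunits and 7 assembly factors. The core subunits carry the flavin and most of the iron-sulfur clusters that electrons cross. Their log2 fold changes lay between -0.14 and 0.02 with a median of -0.04. Ndufs1, the largest core subunit, was at 9.38, 9.51, 9.37, 9.36 and 9.56 in CpG1826 tumors, against 9.65, 9.51, 9.52, 9.64 and 9.52 in PBS tumors. Ndufv1, which binds NADH and flavin, was at 9.93, 9.99, 9.996, 9.89 and 9.97 in CpG1826 tumors, against 9.84, 10.10, 9.95, 10.08 and 9.96 in PBS tumors. The groups overlapped in both genes. Ndufv2, its partner in the NADH-binding module, was at 9.36 to 9.51 in CpG1826 tumors and at 9.46 to 9.56 in PBS tumors other than mouse 26, which stood at 8.87.

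The accessory subunits surround the core and are needed for its assembly and stability. Their median was -0.02, with 11 of 28 above 0 and 17 below. Ndufa5, a subunit of the matrix arm, had values of 7.78, 7.91, 7.78, 7.85 and 7.92 in CpG1826 tumors, against 7.99, 7.995, 7.99, 8.11 and 8.004 in PBS tumors. The groups did not overlap, but the gap between the highest CpG1826 value and the lowest PBS value was narrow and the log2 fold change was -0.17 ± 0.06 (SE, limma adjusted p = 0.159). Ndufc1, a small subunit of the membrane arm, had values of 9.20, 9.48, 9.23, 9.12 and 9.38 in CpG1826 tumors, against 9.77, 9.44, 9.34, 9.46 and 9.42 in PBS tumors. Mouse 26 held the highest of them, and the groups overlapped. The log2 fold change of Ndufc1 was -0.21 ± 0.09 (SE, limma adjusted p = 0.311), and -0.13 without mouse 26. A second Ndufc1 probe gave -0.31 and passed the test when every single-symbol probe was tested on its own (limma adjusted p = 0.0254); no other of the 42 probes of the 17 genes with several probes did. Ndufb11, an X-linked subunit of the membrane arm, had a log2 fold change of -0.14 ± 0.07 (SE, limma adjusted p = 0.314). A second Ndufb11 probe gave -0.08 (limma adjusted p = 0.736 with every single-symbol probe tested on its own).

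At the other end, Ndufs5 and Ndufs4 had the highest estimates of the subunits. Ndufs4, whose loss in mice gives a model of Leigh syndrome, was at 9.29 to 9.63 in CpG1826 tumors and 8.995 to 9.67 in PBS tumors, with a log2 fold change of 0.09 ± 0.11 (SE). Its estimate was -0.01 without mouse 26, the lowest of the PBS tumors. Ndufs5, a subunit of the intermembrane face, was at 8.88 to 9.03 in CpG1826 tumors and 8.64 to 8.98 in PBS tumors, with a log2 fold change of 0.11 ± 0.08 (SE). Neither passed the test (limma adjusted p of 0.780 for Ndufs4 and 0.537 for Ndufs5).

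The assembly factors help to build complex I and are not part of the finished enzyme. Of the 7, 2 lay above 0 and 5 below, with a median of -0.06. Ndufaf1, which acts in building the membrane arm, had values of 7.60, 7.85, 7.90, 7.59 and 7.88 in CpG1826 tumors, against 8.12, 7.82, 7.86, 8.04 and 8.08 in PBS tumors, and the groups overlapped. Ndufaf7, a methyltransferase of the mitochondrial matrix, had values of 7.84, 8.06, 7.91, 7.94 and 7.99 in CpG1826 tumors, against 8.14, 8.13, 8.06, 8.12 and 8.06 in PBS tumors. In Ndufaf7 the groups did not overlap, though the highest CpG1826 value and the lowest PBS value were equal to 2 decimals. The log2 fold changes were -0.22 ± 0.09 for Ndufaf1 and -0.15 ± 0.06 for Ndufaf7 (SE, limma adjusted p of 0.238 and 0.233). Ndufaf4 had a log2 fold change of -0.17 ± 0.09 (SE), and Ndufaf3 and Ndufaf5 had 0.08 ± 0.10 each.

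Complex II, succinate dehydrogenase, joins the TCA cycle to the chain, and all 4 of its subunits are nuclear-encoded. All 4 log2 fold changes lay below 0, between -0.13 and -0.03, and the groups overlapped in each. Sdha, the flavin-bearing catalytic subunit, had values of 10.36, 10.58, 10.62, 10.50 and 10.69 in CpG1826 tumors, against 10.91, 10.60, 10.63, 10.59 and 10.55 in PBS tumors. Sdhb, the iron-sulfur subunit, had values of 8.83, 8.84, 8.81, 8.66 and 8.83 in CpG1826 tumors, against 8.91, 9.07, 8.85, 8.93 and 8.84 in PBS tumors. Mouse 189 was the lowest CpG1826 tumor for Sdhb, and the other CpG1826 tumors reached up to the lowest PBS value. The log2 fold change was -0.10 ± 0.09 for Sdha and -0.13 ± 0.07 for Sdhb (SE, limma adjusted p of 0.629 and 0.415). The membrane anchors Sdhc and Sdhd both had -0.03 ± 0.07. Across the separate intervals of the 4 genes, the largest fall allowed was 1.22-fold and the largest rise 1.08-fold. No interval was fitted for the complex as a whole.

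In complex III the 8 genes split evenly, 4 above 0 and 4 below. Uqcrfs1, the Rieske iron-sulfur protein, had the smallest spread between mice of the 89 genes (SD 0.0293 within groups) and was at 8.04, 8.01, 7.99, 8.02 and 8.04 in CpG1826 tumors, against 8.02, 7.96, 8.03, 8.03 and 8.06 in PBS tumors. Its groups lay on top of each other, with a 95% interval of -0.12 to 0.11. Uqcrc1 and Uqcrc2, the large matrix-side core proteins, had estimates of -0.07 and 0.04. Uqcrb, an accessory subunit near the ubiquinone site, had values of 10.31, 10.63, 10.36, 10.28 and 10.55 in CpG1826 tumors, against 11.00, 10.56, 10.36, 10.64 and 10.47 in PBS tumors. Its log2 fold change of -0.18 ± 0.11 (SE) was -0.08 without mouse 26, which held the highest value. Uqcrh, the hinge protein between cytochrome c1 and cytochrome c, had -0.13 ± 0.07, and the small subunits Uqcr10 and Uqcr11 had 0.07 ± 0.12 and 0.05 ± 0.10. None of these passed the test, the limma adjusted p being 0.518 for Uqcrb and 0.440 for Uqcrh. A second Uqcr11 probe gave 0.29 (limma adjusted p = 0.228 with every single-symbol probe tested on its own). The range between Uqcr11 probes, 0.24, was the widest of the chain genes with several probes.

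Complex IV genes were described as 10 widely expressed subunits, 8 isoforms restricted to a tissue or condition, and Cox7a2l. The widely expressed subunits had a median of -0.01, with 5 above 0 and 5 below. Cox4i1, the common form of the regulatory subunit 4, was at 9.88, 9.79, 9.84, 9.76 and 9.77 in CpG1826 tumors, against 9.78, 9.86, 9.62, 9.81 and 9.63 in PBS tumors. Cox7a2, the common form of subunit 7a, was at 8.97, 9.13, 8.87, 8.72 and 9.001 in CpG1826 tumors, against 9.77, 9.08, 9.01, 9.10 and 8.96 in PBS tumors. The groups overlapped in both, and mouse 26 stood far above every other tumor for Cox7a2. Its log2 fold change was -0.24 ± 0.14 (SE, limma adjusted p = 0.448) with that tumor and -0.10 without it. Cox7a2l, which links complexes III and IV into a supercomplex and occurs in C57BL/6 mice in a shortened form, had 0.01 ± 0.09.

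Ndufa4 was first assigned to complex I, as its name records, and is now counted as a subunit of complex IV. Its values were 10.98, 11.15, 11.21, 11.11 and 11.05 in CpG1826 tumors, against 11.26, 11.30, 11.20, 11.31 and 11.16 in PBS tumors. A single CpG1826 tumor, mouse 183, lay above the 2 lowest PBS tumors, and the log2 fold change was -0.14 ± 0.07 (SE, limma adjusted p = 0.303). Ndufa4l2, a paralogue known as a target of the hypoxia factor HIF-1, was at 5.89, 6.07, 5.86, 6.09 and 5.93 in CpG1826 tumors, against 5.85, 5.72, 5.86, 5.86 and 5.79 in PBS tumors. Its log2 fold change was 0.15 ± 0.07 (SE, limma adjusted p = 0.313), with the groups overlapping near 5.86.

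A further paralogue lies outside the symbol rule. AA467197, the mouse gene for the protein known as NMES1 or MOCCI, encodes a small protein that takes the place of NDUFA4 in complex IV in inflamed cells, and its transcript carries the microRNA miR-147. AA467197 was at 10.74, 10.75, 11.05, 11.00 and 10.95 in CpG1826 tumors, against 9.38, 10.02, 9.87, 9.83 and 9.48 in PBS tumors. Every CpG1826 tumor lay above every PBS tumor. AA467197 rose in CpG1826 tumors by a log2 fold change of 1.18 ± 0.12 (SE, limma adjusted p = 5.61e-05), a 2.27-fold rise with a 95% interval of 1.89 to 2.71. Without mouse 26, the lowest tumor, it was 1.10.

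**Figure D3:**
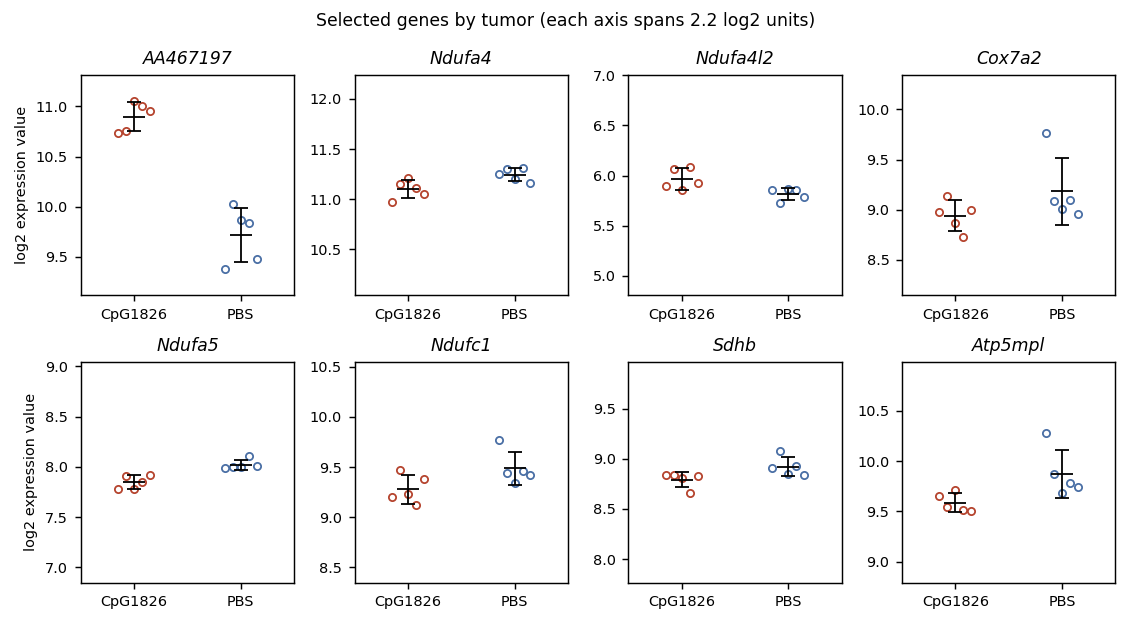
Log2 value of 8 genes in each tumor (circles), CpG1826 left of PBS in each panel, with the mean and SD of 5 tumors (bars); each vertical axis spans the same number of log2 units. In AA467197 the groups are far apart, at 10.74 to 11.05 in CpG1826 tumors and 9.38 to 10.02 in PBS tumors, while in the 7 chain genes they lie close together or overlap, with mouse 26 as the single high PBS point in Cox7a2, Ndufc1 and Atp5mpl.

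Whether a restricted form moved against its widely expressed counterpart was asked as the difference of their log2 values within each tumor, in 6 pairs chosen with earlier results of these tumors known. Only the change of that difference between groups is read, since different probes do not share a scale. AA467197 minus Ndufa4 averaged -0.20 ± 0.12 in CpG1826 tumors and -1.53 ± 0.25 in PBS tumors (SD, n = 5 each), a change of 1.33 (two-sided exact permutation p = 0.00794, the lowest value 5 against 5 arrays can give; 0.0476 adjusted over the 6 pairs). It is the sum of the rise of AA467197 by 1.18 and the Ndufa4 estimate of -0.14 with its sign turned. Ndufa4l2 minus Ndufa4 averaged -5.14 ± 0.13 in CpG1826 tumors and -5.43 ± 0.09 in PBS tumors, a change of 0.29 (exact permutation p = 0.0159, adjusted 0.0476). Leaving out PBS mouse 26, 29, 592 or 661 brought the adjusted p for this pair to 0.0714. The adjusted 0.0476 of the Ndufa4l2 pair depends on the AA467197 pair being among the 6, chosen with earlier results known. Singly, neither Ndufa4l2 nor Ndufa4 passed the test (limma adjusted p of 0.313 and 0.303).

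None of the other 4 pairs passed the test. Cox7a1, the heart and skeletal muscle form of subunit 7a, minus Cox7a2 differed by 0.30 ± 0.16 between the groups (SE, exact permutation p = 0.111, adjusted 0.222), and by 0.20 without mouse 26. For Cox6a2 minus Cox6a1 the difference was -0.04 ± 0.18, for Cox8b minus Cox8a -0.06 ± 0.12 and for Cox4i2 minus Cox4i1 0.06 ± 0.15 (SE, exact permutation p of 0.802, 0.651 and 0.698, adjusted 0.802 each). Over all 8 restricted isoforms the median log2 fold change was 0.08, with 6 above 0 and 2 below. Cox6a2, the muscle form of subunit 6a, was at 8.29, 8.02, 7.83, 8.35 and 7.75 in CpG1826 tumors, against 7.65, 7.79, 7.94, 8.03 and 8.36 in PBS tumors. The tumors of each group covered nearly the same range. With the skeletal muscle score of each array as a covariate the Cox6a2 estimate was -0.02, against 0.10 ± 0.14 (SE) without it. Cox4i2, the lung and hypoxia form of subunit 4, was at 6.16 to 6.39 in CpG1826 tumors other than mouse 189, which stood at 6.79, and at 6.07 to 6.38 in PBS tumors. The testis forms Cox6b2, Cox7b2 and Cox8c had log2 fold changes of 0.07, 0.15 and -0.08.

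ATP synthase is built from a catalytic F1 head on a central stalk, a membrane ring of c subunits that turns as protons pass, and a peripheral stalk that holds the head still. Of its 17 genes 14 had a log2 fold change below 0, and the mean level over the 17 was 10.60 ± 0.06 in CpG1826 tumors and 10.67 ± 0.05 in PBS tumors (SD, n = 5 each). That difference is larger than either SD, but the tumors overlapped, at 10.51 to 10.66 in CpG1826 tumors and 10.62 to 10.73 in PBS tumors. Atp5a1 and Atp5b, the alpha and beta subunits of the catalytic head, had log2 fold changes of -0.11 ± 0.06 and -0.06 ± 0.06 (SE). Atp5b was at 12.57, 12.66, 12.66, 12.60 and 12.66 in CpG1826 tumors, against 12.78, 12.66, 12.64, 12.68 and 12.67 in PBS tumors. The head and central stalk as a whole had a median of -0.06, with Atp5d, the delta subunit of the central stalk, highest at 0.04 ± 0.06.

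The c ring is encoded by Atp5g1, Atp5g2 and Atp5g3, which make the same mature protein with different targeting sequences. Atp5g3 had values of 10.80, 10.64, 10.80, 10.76 and 10.88 in CpG1826 tumors, against 10.84, 10.94, 10.92, 10.93 and 10.99 in PBS tumors. Atp5g2 had values of 11.77, 11.86, 11.72, 11.72 and 11.69 in CpG1826 tumors, against 11.29, 11.85, 11.79, 11.78 and 11.89 in PBS tumors. The groups overlapped in both genes. The log2 fold change was -0.15 ± 0.06 for Atp5g3 and 0.03 ± 0.10 for Atp5g2 (SE, limma adjusted p of 0.275 and 0.922), and that of Atp5g2 was -0.08 without mouse 26, its lowest tumor. Atp5g1 had -0.07 ± 0.07.

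The lowest estimate of the 89 genes belonged to Atp5mpl, a small membrane-bound proteolipid of ATP synthase. Atp5mpl had values of 9.66, 9.54, 9.71, 9.52 and 9.51 in CpG1826 tumors, against 10.28, 9.87, 9.68, 9.78 and 9.74 in PBS tumors. A single CpG1826 tumor, mouse 183, lay above the lowest PBS tumor, mouse 482. The log2 fold change was -0.29 ± 0.10 (SE, limma adjusted p = 0.178), and -0.18 without mouse 26, the highest tumor. The peripheral stalk genes Atp5h, Atp5j, Atp5o and Atp5pb all lay between -0.08 and -0.03.

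The subunits encoded by mitochondrial DNA were measured by 2 probes with a symbol. ND3, of complex I, had a log2 fold change of -0.16 ± 0.12 and COX2, of complex IV, 0.01 ± 0.10 (SE, limma adjusted p of 0.589 and 0.982). Of 36 assembly factors of the complexes outside the symbol rule, 0 passed the test, with a median of -0.04. At an unadjusted p under 0.05 limma gave 1 higher and 4 lower, where 8.13% of all genes were higher and 7.43% lower. The electron and nucleotide carriers, 12 genes, also gave 0 calls (median -0.07; 1 higher and 2 lower at an unadjusted p under 0.05). Among them Cyc1, the cytochrome of complex III, had -0.11 ± 0.08, and Cycs, cytochrome c, 0.02 ± 0.09. Atpif1, the inhibitor protein of ATP synthase, had -0.23 ± 0.07 with groups that did not overlap (SE, limma adjusted p = 0.122). In the carrier list the groups did not overlap in 2 lower genes, Atpif1 among them, and in 1 higher gene (background 2.42% and 4.35%). That higher gene had the smallest limma adjusted p of the list, 0.0875.

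Other lists of the mitochondrion gave no call either. Of 18 genes of the TCA cycle and pyruvate dehydrogenase 0 were called (median -0.03; 0 at an unadjusted p under 0.05), and of 77 mitochondrial ribosome genes 0 (median -0.03; 1 higher and 4 lower at an unadjusted p under 0.05). Over all genes, 8.13% were higher and 7.43% lower at that unadjusted threshold. Of 16 regulators of mitochondrial biogenesis, 0 were called (median 0.00; 1 lower at an unadjusted p under 0.05), with Ppargc1a, the coactivator PGC-1alpha, at 0.10 ± 0.09 and Tfam, which packages and transcribes mitochondrial DNA, at 0.03 ± 0.09.

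Of 9 genes linked to inflammation that modify respiration, 5 rose and 0 fell, with a median of 0.50, where 3.56% of all genes rose. Like the other lists, this one was chosen with earlier results of these data known, so its share is not a test against all genes. Higd1a, Higd2a, Pdk1 and Pdk4 did not pass the test, with log2 fold changes of 0.20, -0.04, 0.19 and 0.50 (limma adjusted p of 0.511, 0.848, 0.458 and 0.279). Besides AA467197, Nos2 rose by 2.89 ± 0.20 (log2 fold change, SE): it makes nitric oxide, which can block complex IV. Acod1, which makes itaconate, an inhibitor of succinate dehydrogenase, rose by 1.91 ± 0.20. Acod1 was at 10.81, 10.18, 10.73, 10.54 and 10.44 in CpG1826 tumors, against 8.50, 9.12, 8.78, 8.92 and 7.85 in PBS tumors, with no overlap. Sod2, the superoxide dismutase of the mitochondrial matrix, rose by 1.44 ± 0.10 and Hif1a by 0.44 ± 0.06.

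Of 16 genes of glycolysis 4 rose and 1 fell, with a median of 0.17, where 3.56% of all genes rose and 1.10% fell. Pfkfb3, which makes the activator of phosphofructokinase, was at 10.47, 10.30, 10.97, 10.27 and 10.29 in CpG1826 tumors, against 8.53, 8.79, 8.93, 8.73 and 8.36 in PBS tumors. Slc2a1, the glucose transporter GLUT1, was at 11.99, 11.63, 11.57, 11.72 and 11.53 in CpG1826 tumors, against 11.05, 11.04, 11.03, 10.93 and 10.93 in PBS tumors. The groups were apart in both, and the log2 fold changes were 1.79 ± 0.14 for Pfkfb3 and 0.69 ± 0.09 for Slc2a1 (SE, limma adjusted p of 6.79e-06 and 0.000257). Hk2 and Pfkp, a hexokinase and a phosphofructokinase, rose by 0.46 and 0.31, and Pfkm, the muscle phosphofructokinase, fell by 0.23 on the log2 scale. The call of Pfkp was lost without CpG1826 mouse 50, 58, 189 or 595 or PBS mouse 26, 29 or 661, and that of Pfkm without CpG1826 mouse 58, 183, 189 or 595 or PBS mouse 29, 482 or 661, with limma adjusted p-values of up to 0.0934 for Pfkp and 0.0830 for Pfkm over all alternatives.

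**Figure D4:**
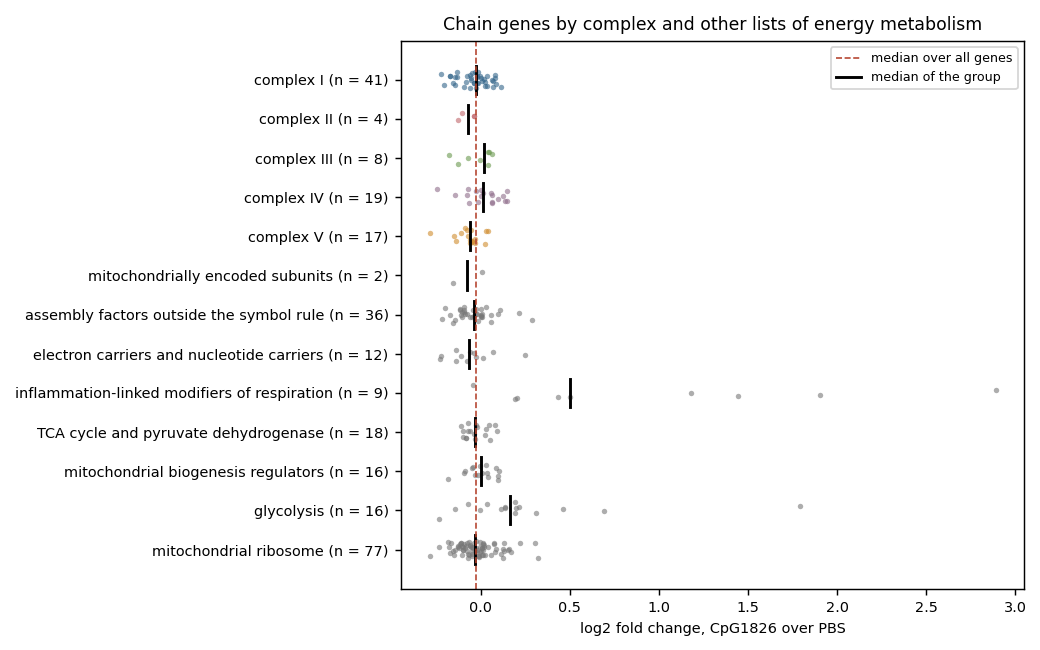
Log2 fold change of each gene, CpG1826 over PBS (points), for the 5 complexes and for the other lists of energy metabolism, with the median of each list (black bar) and of all genes (dashed line at -0.02). The points of the 5 complexes stay between -0.29 and 0.15, while members of the inflammation-linked list reach 2.89 and of glycolysis 1.79.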

How the data were processed

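The deposited table holds log2 values, 1 per probe and array, that the authors made from biotin-labelled total RNA on whole-transcript arrays, per the labels' protocols. That the scale is log2 was inferred from its range of 2.03 to 14.70. R 2.7.1 and limma are named in the submitters' processing notes. The steps of background correction, summarization and normalization, however, were not given in the sources used here; if arrays were made alike, a shift common to most genes would be hidden. Of 35512 probes, 21789 carried 1 gene symbol and were used, 1621 carried several and 12102 none. For each gene the probe with the highest mean over the 10 arrays was kept. For chain genes, 6 probes with several symbols were not used.

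The limma package (version 3.58.1, in R 4.3.3) was fitted to all 19938 genes with lmFit and eBayes, two-sided, 5 CpG1826 against 5 PBS arrays, with Benjamini-Hochberg adjustment over all genes at a threshold of 0.05. Simulated data with known changes were used to test the fit. For isoform pairs, arrays were permuted exactly. By rule, 40 genes were named: the 2 highest and 2 lowest log2 fold changes of complex I subunits, of complex I assembly factors and of complexes II to V, the restricted isoforms with Cox7a2l and Ndufa4, AA467197, Acod1, Nos2, Cyc1, Cycs, Ppargc1a and Tfam, and up to 2 called genes of each list with the largest change. Other genes named, 72 in all with these, were picked with their values seen. The members, lists and pairs were chosen with earlier results of these data known. Results were recomputed with quantile normalization, with median centring, with 2 filters on low levels, with a trended robust prior, with weighted arrays, with a gene's probes averaged, at a threshold of 0.01, with the skeletal muscle score as a covariate, and without each mouse in turn.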

Additional observations from a re-analysis of the deposited data

Results flagged for a closer look

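In 17 of 168 sets of 5 values, 1 tumor lay far from the other 4. Chance alone gives about 5% in independent sets that were not picked. Here the sets share the same 10 tumors. Many are of genes named for an extreme estimate or with their values seen, so the 5% is not a matching reference. PBS mouse 26 was the outlying tumor in 9 of the 17. It was high for Ndufc1 at 9.77 (other PBS tumors 9.34 to 9.46), for Sdha at 10.91 (10.55 to 10.63), for Cox7a2 at 9.77 (8.96 to 9.10) and for Atpif1 at 11.19 (10.88 to 10.93). It was low for Ndufv2 at 8.87 (9.46 to 9.56), for Sdhc at 9.36 (9.56 to 9.61), for Atp5g2 at 11.29 (11.78 to 11.89), for Cox8b at 5.19 (5.43 to 5.51) and for the mean level of complex IV at 8.13 (8.26 to 8.30). PBS mouse 592 was high for Ndufa5 at 8.11 (7.99 to 8.004), and PBS mouse 661 was low for Nos2 at 7.23 (8.13 to 8.398).

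Among CpG1826 tumors, mouse 189 was low for Sdhb at 8.66 (other CpG1826 tumors 8.81 to 8.84), high for Cox8c at 6.88 (6.36 to 6.47) and high for Cox4i2 minus Cox4i1 at -2.97 (-3.63 to -3.47). Mouse 50 was low for Atp5j at 11.02 (11.24 to 11.29). Mouse 595 was high for Ndufs5 at 9.03 (8.88 to 8.92), and mouse 183 for Pfkfb3 at 10.97 (10.27 to 10.47). No cause was tested for any of these.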

How the results depend on the processing

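Under all 19 alternatives 0 of the 89 chain genes were called in either direction. The threshold of 0.01 could add no call, and leaving out a mouse makes a call less likely. Testing every single-symbol probe on its own was not among the 19. There a second Ndufc1 probe was called (limma adjusted p = 0.0254). The lowest adjusted p of a chain gene in limma ran from 0.0560 (Ndufa5, with genes below the median level left out) to 0.220. The median log2 fold change over the 89 genes stayed between -0.07 and -0.01. That of complex IV, 0.014 over all mice, ran from -0.052 (without PBS mouse 26) to 0.038 with a mouse left out, and was 0.056 with a gene's probes averaged; the cause was not tested. With mice left out, Ndufa4l2 minus Ndufa4 ran from 0.26 to 0.35, and its adjusted p was 0.0714 without PBS mouse 26 (0.30), 29 (0.26), 592 (0.29) or 661 (0.31). AA467197 minus Ndufa4 ran from 1.24 to 1.39 and kept its call. Of the 72 genes named, 12 were called, 8 of them under every alternative with the same sign; Pfkp, Pfkm and Epcam lost the call under several and Cdh1 at the threshold of 0.01 only. Of the 60 not called, 17 changed sign at least once and 1, Pdk4, was called with the muscle score as a covariate (0.75, limma adjusted p = 0.0310). Without its assembly factors, complex I had a median of -0.02, an alternative added after seeing the data. Over all genes, the 220 lower calls became 364 after quantile normalization, 338 without genes below the median level, 64 at a threshold of 0.01 (407 higher, against 710) and 121 to 209 with a mouse left out; a smaller group and a stricter threshold lower such counts by construction. No paired analysis was possible because the groups share no mouse number. With 5 arrays a group and no detection calls, small changes and dim genes such as Cox7b2 are the least certain.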
